A study of Mus musculus with 24 samples.

Results

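The 10 genes described here are Mmp9, Mmp10, Mmp13, Mmp14, Timp1, Timp2, Timp3, Plau, Plaur and Adamts18, taken by symbol from the 25239 genes of the deposited table. They encode 4 matrix metalloproteinases, 3 tissue inhibitors of metalloproteinases, the urokinase-type plasminogen activator with its receptor, and a disintegrin-like metalloproteinase with thrombospondin motifs. All were measured in tracheal epithelial cells isolated from FVB/NJ mice (wild type, 7 to 8 weeks old), grown on permeable inserts with air above and medium below for 10 to 14 days until differentiated. There were 4 groups of 6 inserts each: female cells in air, female cells in smoke, and the same pair for male cells. Smoke groups received cigarette smoke and air groups humidified air for 10 days, and one exposure burned 2 cigarettes over about 8 minutes. The labels do not tie inserts to mice or cell preparations, so the p-values measure only the spread between inserts, and sex cannot be told apart from the preparation of the cells.

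Matrix metalloproteinases are secreted or membrane-bound zinc enzymes that cleave collagens, laminins, growth factors and cell surface proteins. TIMPs bind and block their active site. Urokinase, held at the cell surface by its receptor, turns plasminogen into plasmin, which degrades fibrin and matrix and can activate several metalloproteinase precursors. In airway epithelium both systems act in the detachment, migration and repair of the cell layer after injury.

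The upstream bases of 4 of these genes are shown first, because 3 of them share a motif and the remaining one, Timp3, was lower with smoke in both sexes. Each line gives the 120 bases before the annotated RefSeq start, on the plus strand of GRCm38.p6 (mm10), with a motif match in capitals. Windows were available for 8 of the 10 genes, and Mmp9 and Plau had no entry.
Mmp10, chr9:7502222-7502341: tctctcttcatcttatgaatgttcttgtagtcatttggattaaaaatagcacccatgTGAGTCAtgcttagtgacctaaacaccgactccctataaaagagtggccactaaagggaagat
Mmp13, chr9:7272394-7272513: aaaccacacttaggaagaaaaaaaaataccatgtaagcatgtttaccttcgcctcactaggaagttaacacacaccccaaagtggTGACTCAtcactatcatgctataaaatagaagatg
Plaur, chr7:24462363-24462482: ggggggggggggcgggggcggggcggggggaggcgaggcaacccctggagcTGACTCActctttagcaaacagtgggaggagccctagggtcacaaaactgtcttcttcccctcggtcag
Timp3, chr10:86300292-86300411: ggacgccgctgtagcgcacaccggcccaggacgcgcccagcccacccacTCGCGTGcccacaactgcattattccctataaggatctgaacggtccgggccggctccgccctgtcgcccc
In the first 3 lines the capitals mark TGANTCA, the letters bound by AP-1, a Fos and Jun family dimer. In the Timp3 line they mark TNGCGTG, which holds the core letters of the aryl hydrocarbon receptor site. Both strands of the 250 bases before each start were searched. TGANTCA lay from base -63 to -57 of Mmp10, -35 to -29 of Mmp13 and -69 to -63 of Plaur, and in 6.75% of all 32851 windows of that length. TNGCGTG lay from base -71 to -65 of Timp3 and in 4.10% of windows. TGACNNNGC, the letters bound by NRF2, matched among these genes in Timp2 alone, on the strand opposite to the gene from base -152 to -144, and in 10.2% of windows. No gene held 2 of the 3 motifs, so no matches overlapped. A match describes letters and was not tested as a binding site.

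The genes lie apart in mm10, except that Mmp10 (chr9:7502342-7510242, plus strand) and Mmp13 (chr9:7272514-7283333, plus strand) share a cluster of metalloproteinase genes, and Mmp14 (chr14:54431598-54442456) and Plau (chr14:20836662-20843388) share a chromosome. Plaur spans chr7:24462483-24475968, Timp3 chr10:86300412-86349505, Timp2 chr11:118301061-118355411 and Adamts18 chr8:113697124-113848839, the last 2 on the minus strand. Mmp9 spans chr2:164948219-164955850 and Timp1 chrX:20870166-20874737.

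Levels are normalised read counts, the authors' gene counts divided by a size factor per library. Recovered totals ran from 16038813 to 24485024 reads in 23 libraries. Female air insert 1 and female smoke insert 4 stood apart from their groups, with 4967 and 3000 of 13549 genes more than 2-fold from the group median and with deviations that followed gene length (Spearman -0.661 and -0.426 across genes). The labelled epithelium carried 6 basal cell markers, summing to 162894 to 265745 in female air and 241918 to 401411 in female smoke. In male cells they summed to 166934 to 210254 in air and 119595 to 251326 in smoke. Keratins held most of this sum, and the markers did not move together. Mean Krt5 was 78590.1 in female air and 165813 in female smoke, and 46066 and 74652 in male air and smoke. Mean Dapl1 was 243 in female air and 64.8 in female smoke, and 194 and 46.4 in male air and smoke. Mean Krt14 was higher with smoke in both sexes, as Krt5 was, and mean Ngfr lower, as Dapl1 was. In female cells, though, the air and smoke ranges of Krt14 (34312 to 76858 and 40812 to 138891) overlapped. So did those of Ngfr (607 to 1771 and 464 to 1297). Trp63 and Krt15 averaged higher with smoke in female and lower in male cells. Club and secretory markers summed to 144558 to 358383 in female air and 25447 to 139127 in female smoke, and to 389538 to 670211 in male air and 74388 to 254839.5 in male smoke. Ciliated markers summed to 9974 to 19741 and 101 to 10403 in female air and smoke, and to 3282 to 6096 and 269 to 3987 in male air and smoke. Squamous markers summed to 136449 to 284770.3 and 299254 to 410848 in female cells, and to 5618 to 11819.7 and 21964 to 54513 in male cells. Krt13 held most of the female sum, with overlapping ranges of 112009.6 to 272013 in air and 246739 to 335284 in smoke. Female Ivl also overlapped and mean Krt10 was 196 and 199, while Krt6a, Krt6b and Sprr1a were higher in smoke without overlap. Among 7 fibroblast markers the summed level was 290.2 to 1509 in female air and 22.8 to 159.5 in female smoke. In male cells it was 167 to 429.6 in air and 29.7 to 97 in smoke. Postn and Dcn made up most of it in air, with means of 385 and 181 in female air and 95.4 and 163 in male air. The collagen genes Col1a1, Col1a2 and Col3a1 averaged at most 19.9 in any group, and Pdgfra at most 16.7. Lum was near 0 throughout, with means of 0.254 in female air, 0.368 in male air and 0 in both smoke groups. Of 8 leukocyte markers Ptprc, Adgre1, Cd3e and Ly6g stayed under a mean of 10 in each group and Csf1r reached at most 23.3. The other 3 were higher: Lyz2, which airway epithelium can also express, had group means of 20565 to 65401, Itgam 32.1 to 2207 and Cd68 129 to 362. The leukocyte list summed to 33633 to 131020.2 in female air and 5187 to 41786 in female smoke, and to 30324 to 40529.5 and 5788 to 44351 in male cells. Lyz2 held most of this sum and averaged lower with smoke in both sexes, whereas Cd68 and Itgam averaged higher. Mean Cd68 was 129.6 and 229 in female air and smoke, and 129 and 362 in male air and smoke. Mean Itgam was 1206 and 2207 in female cells, and 32.1 and 203 in male cells. Of 5 endothelial markers 4 stayed under a mean of 10 and Vwf reached at most 28.1, with list sums of 6.31 to 63.5 over all libraries. Their part in the results below was not tested, and fewer cells of a type cannot be told apart from less RNA per cell in these bulk samples.

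Genes with a mean of at least 10 normalised counts over the 24 libraries were tested with limma on log2(normalised count + 1), adjusted by Benjamini-Hochberg over 13549 genes and called at an adjusted p under 0.05. Of the 10 genes, 8 entered this test; Mmp9 and Mmp10 were too low, and Adamts18 entered only through female air, so the calls it adds below are a consequence of that filter and support nothing. Fold changes are on that log2 scale and understate changes of low genes. In female cells 3 of the 8 were called between smoke and air, Plaur higher and Timp3 and Adamts18 lower, where 34.8% of all genes tested were called (15.5% higher and 19.3% lower). In male cells 3 of the 8 were called, Plau and Plaur higher and Timp3 lower, where 22.0% of all genes were called (9.76% higher and 12.2% lower). A count of 3 in 8 is near that background in female cells, and with so few genes it is no result about the set in either sex. These shares come from a fit in which all groups share a single estimate of the spread. With the groups of each sex fitted alone, fewer genes were called in female and more in male cells. The 6 smoke and 6 air inserts did not overlap for 2 of the 8 in female cells, beside 12.5% of all genes, and for 2 of the 8 in male cells, beside 25.2%. The female 2 were Plaur and Adamts18, and Adamts18 adds no support here either. The median difference over the 8 genes was -0.26 in female and 0.14 in male cells on the log2 scale, beside 0 and -0.01 over all genes.

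**Figure D1:**
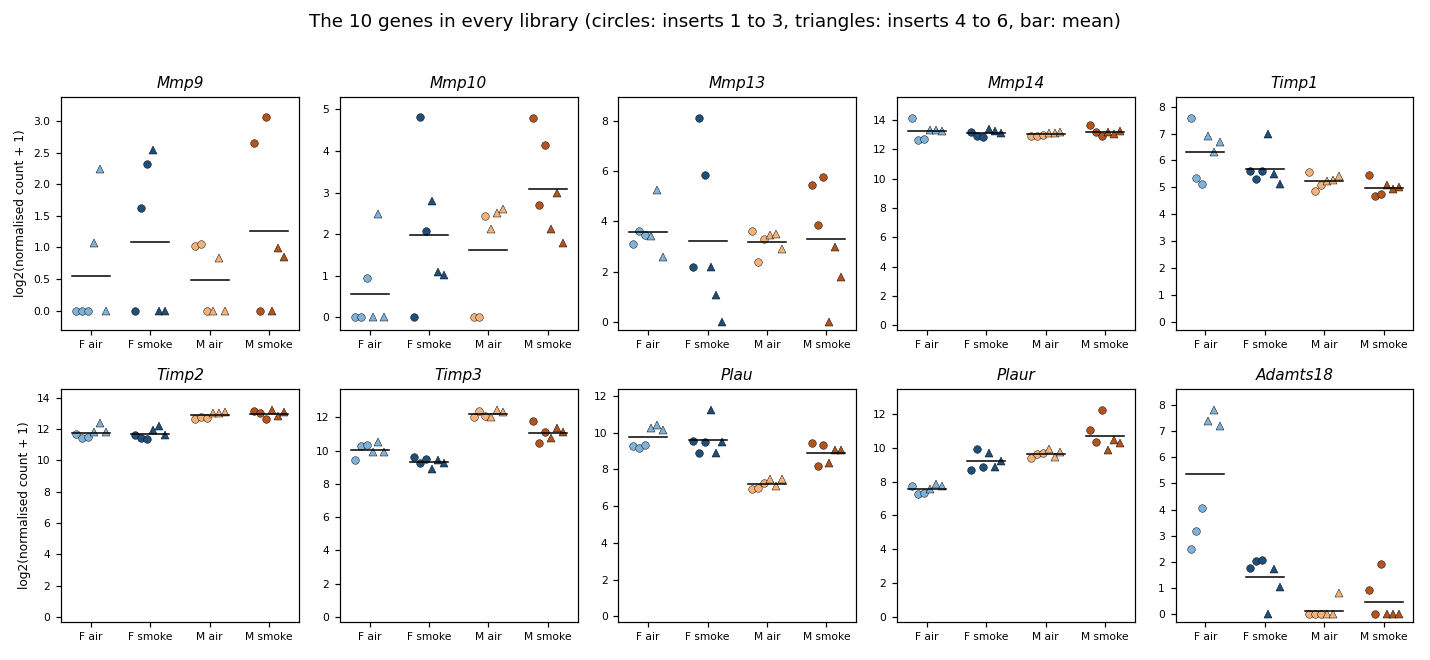
Level of each of the 10 genes in the 24 libraries, as log2(normalised count + 1) on the vertical axis; circles are inserts 1 to 3, triangles inserts 4 to 6 and bars the group mean of the log2 values. Plaur was higher in all 6 female smoke inserts than in all 6 female air inserts, and Plau higher in all 6 male smoke inserts than in all 6 male air inserts.

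Mmp14, the membrane-type metalloproteinase that activates pro-Mmp2 at the cell surface, was the most abundant of the 10 genes per kilobase of exon in every group. In female air it had 17921, 6361, 6512, 10279.5, 9956 and 9609.8 normalised counts in inserts 1 to 6, and in female smoke 9106, 7755, 7266, 10704, 9679 and 8858. The air values spread more widely than the smoke values, and the highest was that of insert 1, whose deviations followed gene length. In male air the inserts ran from 7536 to 9226 and in male smoke from 7569 to 12747, with the ranges overlapping. The smoke-minus-air log2 difference was -0.11 ± 0.18 (SE, limma adjusted p = 0.7) in female and 0.17 ± 0.18 (adjusted p = 0.552) in male cells, and neither was called. Without female air insert 1 the female value was 0.08.

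Mmp13, a collagenase that cleaves fibrillar collagen, was low in air and scattered in smoke. Female air inserts had 7.61, 11.3, 10.0, 9.81, 37.1 and 5.09 normalised counts, and female smoke inserts 3.53, 277, 56.7, 3.6, 1.14 and 0. Smoke inserts 2 and 3 lay above every air insert and the other 4 lay below every air insert. Male air inserts had 11.4, 4.29, 8.84, 10.1, 10.2 and 6.58, and male smoke inserts 42.4, 13.5, 52.6, 0, 6.92 and 2.43. There too inserts 1, 2 and 3 exceeded every air insert, while inserts 4 and 6 lay below them. The log2 difference was -0.34 ± 1.07 (SE, limma adjusted p = 0.838) in female and 0.1 ± 1.07 (adjusted p = 0.959) in male cells. Its sign changed with quantile scaling to 0.15 in female cells, and in inserts 1 to 3 alone it was 1.99 in female and 1.9 in male cells against -2.66 and -1.71 in inserts 4 to 6 alone.

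Mmp10 (stromelysin 2), which degrades proteoglycans and laminin and activates other pro-metalloproteinases, had 0, 0, 0.910, 0, 4.63 and 0 normalised counts in female air and 0, 27.1, 3.19, 5.99, 1.14 and 1.04 in female smoke. Male air inserts had 0, 0, 4.42, 3.37, 4.73 and 5.11, and male smoke inserts 26.5, 5.55, 16.6, 3.33, 6.92 and 2.43. The ranges overlapped in both sexes, with female smoke insert 2 and male smoke inserts 1 and 3 standing highest. Pooled over the recovered libraries there were 37 reads in female smoke against 6 in female air, a depth-scaled ratio of 6.04 with a 95% interval of 2.53 to 17.5, and 61 against 20 in male cells, a ratio of 3.44 (2.05 to 6.02). These intervals cover counting error only and not the spread between inserts. With no filter on low values limma gave log2 differences of 1.4 ± 0.71 (SE, adjusted p = 0.169) and 1.47 ± 0.71 (adjusted p = 0.184). Of the 37 female smoke reads 26 came from insert 2, and without it the ratio was 2.15 (0.730 to 7.10); of the 6 female air reads 5 came from insert 5, and without it the ratio was 29.3 (4.94 to 1186). Of the 61 male smoke reads 30 came from insert 1, and without it the ratio was 2.19 (1.21 to 4.05). In the authors' deposited table, whose sign was turned here to smoke minus air, the female difference was 1.25 with an adjusted p of 0.131 and the male difference 0.97 with an adjusted p of 0.0473.

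Mmp9 (gelatinase B), which cleaves denatured collagen and type IV collagen, was at the limit of detection. It was above 0 in 2 of 6 female air, 3 of 6 female smoke, 3 of 6 male air and 4 of 6 male smoke inserts, with highest values of 3.71, 4.79, 1.07 and 7.39 normalised counts. Its reads numbered 11 in female smoke against 5 in female air, a ratio of 2.15 (95% counting interval 0.690 to 7.91), and 15 against 3 in male cells, a ratio of 5.64 (1.59 to 30.4). The female ratio was 8.70 (1.26 to 374) without air insert 5, and the male ratio 3.26 (0.744 to 19.5) without smoke insert 3. No call was made without the filter (limma adjusted p = 0.565 in female and 0.415 in male cells).

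Mmp10, Mmp13 and Plaur had their highest female value in smoke insert 2 and their 2 highest male values in smoke inserts 1 and 3. Plaur reached 977 in female smoke insert 2, and 2144 and 4848 in male smoke inserts 1 and 3. The male pattern was not limited to these 3: Plau had its 2 highest male values, 691 and 637, and Mmp9 its 2 highest, 5.30 and 7.39, in smoke inserts 1 and 3. Squamous markers summed to 54513 and 37232 in male smoke inserts 1 and 3 and to 21964 to 42481 in the other male smoke inserts. The inserts share a library for all genes and were singled out after their values were seen, so this is a description with no test.

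**Figure D2:**
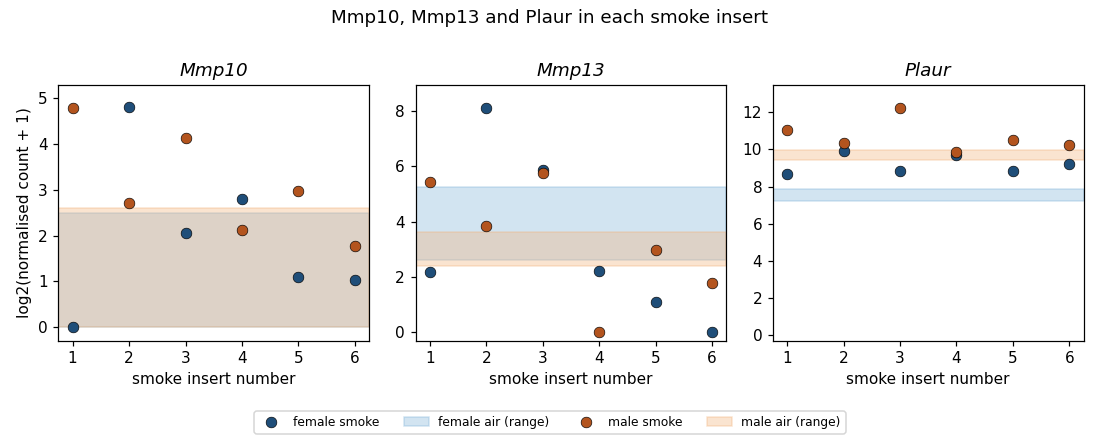
Mmp10, Mmp13 and Plaur in each smoke insert, as log2(normalised count + 1) on the vertical axis against insert number; blue points are female smoke, orange points male smoke, and shaded bands the range of the 6 air inserts of each sex. Female insert 2 and male inserts 1 and 3 are the highest of their sex for all 3 genes.

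Timp3, the inhibitor that binds to the extracellular matrix and also blocks ADAM17 and aggrecan-cleaving ADAMTS enzymes, was lower with smoke in both sexes. Female air inserts had 689, 1215, 1293, 950.2, 1436 and 964 normalised counts, and female smoke inserts 788, 618, 706, 475, 687 and 595. Air inserts 2 to 6 lay above every smoke insert, and air insert 1 fell among the smoke values. Male air inserts had 4160.0, 5352, 4376, 4164, 5560.2 and 5173, and male smoke inserts 3527, 1401, 2172, 1696, 2573 and 2212. Every male smoke insert lay below every male air insert, as for 14.2% of all genes tested. The log2 difference was -0.74 ± 0.19 (SE, limma adjusted p = 0.0047), 1.66-fold lower, in female cells and -1.14 ± 0.19 (adjusted p = 0.000197), 2.2-fold lower, in male cells. The difference between the sexes, 0.4 ± 0.27, was not called (adjusted p = 0.584). In female inserts 1 to 3 alone the value was -0.55 and was not called (adjusted p = 0.265).

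Timp2, which together with Mmp14 forms the surface complex that activates pro-Mmp2, was the second most abundant gene per kilobase in every group. It had 2739 to 5271 normalised counts in female air, 2605 to 4678 in female smoke, 6514 to 8669 in male air and 6360.2 to 9529 in male smoke. Within each sex the smoke and air ranges overlapped almost wholly. The log2 differences of -0.08 ± 0.15 (SE, limma adjusted p = 0.734) in female and 0.11 ± 0.15 (adjusted p = 0.658) in male cells were not called, and the female value was 0.04 without female air insert 5.

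Timp1, a secreted inhibitor induced in many tissues by inflammation, was the least abundant of the 3 inhibitors per kilobase of exon. Female air inserts had 192, 39.7, 33.7, 118, 78.7 and 103 normalised counts, and female smoke inserts 48.2, 38.6, 47.9, 127, 44.5 and 34.2. The 2 highest values, 192 and 127, came from the 2 libraries whose deviations followed gene length. Male air inserts ran from 27.9 to 46.6 and male smoke inserts from 24.6 to 42.4. The female log2 difference of -0.63 ± 0.34 (SE) was not called with limma (adjusted p = 0.162). It was called without female air insert 3 (-0.87, adjusted p = 0.0444) or without female smoke insert 4 (-0.89, adjusted p = 0.0339). The male difference was -0.26 ± 0.34 (adjusted p = 0.639).

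Plaur, the receptor that holds urokinase at the cell surface, was higher with smoke in both sexes. Female air inserts had 215, 149.8, 159, 189, 232 and 209 normalised counts, and female smoke inserts 410.3, 977, 457, 840.3, 459 and 599. No smoke insert came near the air range; female cells with smoke exceeded those in air without overlap for 6.73% of all genes. Male air inserts had 686, 804, 838, 985, 689.7 and 848, and male smoke inserts 2144, 1313, 4848, 919, 1432 and 1224. Of the male smoke inserts 5 lay above the air range and insert 4 within it. The log2 difference was 1.63 ± 0.28 (SE, limma adjusted p = 0.000248), 3.1-fold, in female cells and 1.06 ± 0.28 (adjusted p = 0.0101), 2.09-fold, in male cells. The responses of the sexes were not called different (0.57 ± 0.4, adjusted p = 0.614). In male inserts 4 to 6 alone the difference was 0.49 and was not called (adjusted p = 0.249).

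Plau, urokinase itself, was higher with smoke in male cells, and in female cells no difference was called. Male air inserts had 120.2, 127, 154, 179, 136 and 178 normalised counts, and male smoke inserts 691, 285, 637, 322, 532 and 528. Every male smoke insert exceeded every male air insert, as for 11.0% of all genes. Female air inserts had 622, 579.8, 646, 1199, 1365 and 1113, and female smoke inserts 742, 467, 706, 2419, 480.4 and 711. In female air inserts 4 to 6 averaged 1226 and inserts 1 to 3 averaged 616, and in female smoke insert 4 was far above the rest. The log2 difference was 1.68 ± 0.32 (SE, limma adjusted p = 0.000734), 3.21-fold, in male cells and -0.18 ± 0.32 (adjusted p = 0.713) in female cells. In male inserts 4 to 6 alone it was 1.45 and was not called (adjusted p = 0.0913); in female inserts 1 to 3 alone it was 0.02.

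The difference between the sexes in the Plau response was -1.86 ± 0.45 on the log2 scale (SE, limma adjusted p = 0.0475), in a comparison where 2 of the 8 genes and 1.03% of all genes were called (0.694% higher and 0.340% lower), the other of the 2 being Adamts18. This call stood at the threshold. It remained without female air insert 1, 2 or 3, female smoke insert 4, or male smoke insert 2 or 4, and was lost without any one of the other 18 libraries, with adjusted p from 0.00165 to 0.0887 over the 24. The size moved less, from -2.19 to -1.72. With edgeR on whole reads of 23 libraries the adjusted p was 0.0929.

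Adamts18, a secreted protease of the ADAMTS family, had 570 reads in female air and 12 in female smoke, a depth-scaled ratio of 0.0206 (95% counting interval 0.0106 to 0.0363). Female air inserts held 4.56 to 226 normalised counts, with a mean of 9.32 in inserts 1 to 3 and 181 in inserts 4 to 6, and female smoke inserts 0 to 3.19. Every smoke insert lay below every air insert, as for 5.75% of all genes, and the log2 difference was -3.92 ± 0.74 (SE, limma adjusted p = 0.000469). Since the mean was 94.9 in female air and at most 2.00 in the other groups, the gene was tested only because of the group where it is high. In inserts 1 to 3 alone it was -1.27 and was not called (adjusted p = 0.176). Male air had 1 read in 6 libraries and male smoke 4 reads in 5, so no fold is given for male cells. Fibroblast markers summed to 290.2 to 507 in female air inserts 1 to 3 and to 511 to 1509 in inserts 4 to 6. In the female air mean most of that sum was Postn and Dcn. Other lists split the opposite way. Club and secretory markers summed to 251948 to 358383 in inserts 1 to 3 and to 144558 to 181861 in inserts 4 to 6. Squamous markers summed to 198308 to 284770.3 and to 136449 to 174651. Leukocyte and endothelial sums were also higher in inserts 1 to 3, while basal and ciliated sums overlapped. A link of any list to Adamts18 was not tested. The fitted difference between the sexes, -4.26 ± 1.05 (adjusted p = 0.0476), restates that the gene was nearly absent from male cells, where it could hardly fall.

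**Figure D3:**
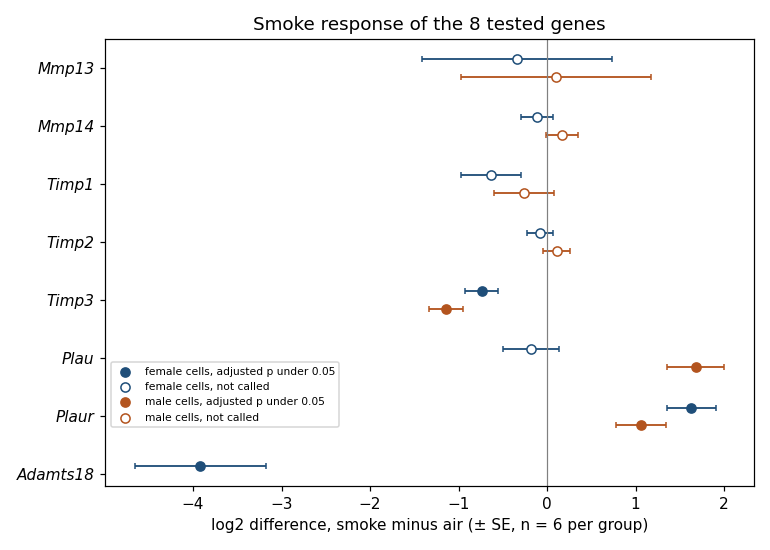
Smoke-minus-air log2 difference with its standard error for the 8 tested genes (7 in male cells), from limma on log2(normalised count + 1) with 6 inserts per group; filled points passed an adjusted p of 0.05. Timp3 lies below 0 and Plaur above 0 in both sexes, Plau is filled for male cells alone and Adamts18 for female cells alone. Male Adamts18, with 5 reads in all, is not drawn.

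Per kilobase of exon the order of the genes differed between groups. In female air Mmp14 had 2659 ± 1106 normalised counts per kilobase (SD, n = 6), Timp2 983 ± 252, Plau 393 ± 147, Timp3 233 ± 58.3, Plaur 127 ± 21.6 and Timp1 106 ± 65.5. The ranges of Mmp14 and Timp2 did not overlap, whereas those of Plaur (99.3 to 154) and Timp1 (37.8 to 215) did. In female smoke Plaur, at 414 ± 155, stood beside Plau at 393 ± 317, with overlapping ranges, and above Timp3 at 138 ± 23. In male air Mmp14 at 2194 ± 188 and Timp2 at 2093 ± 268 overlapped, followed by Timp3 at 1025 ± 136, Plaur at 536 ± 74.4 and Plau at 63.6 ± 10.9. In male smoke Plaur, at 1313 ± 969.8, came before Timp3 at 484 ± 159 and Plau at 213 ± 70.1, with the ranges of Plaur (609 to 3215) and Timp3 (299 to 754) overlapping. Mmp13, Mmp10 and Mmp9 had group means of at most 21.3 normalised counts per kilobase in all 4 groups.

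**Figure D4:**
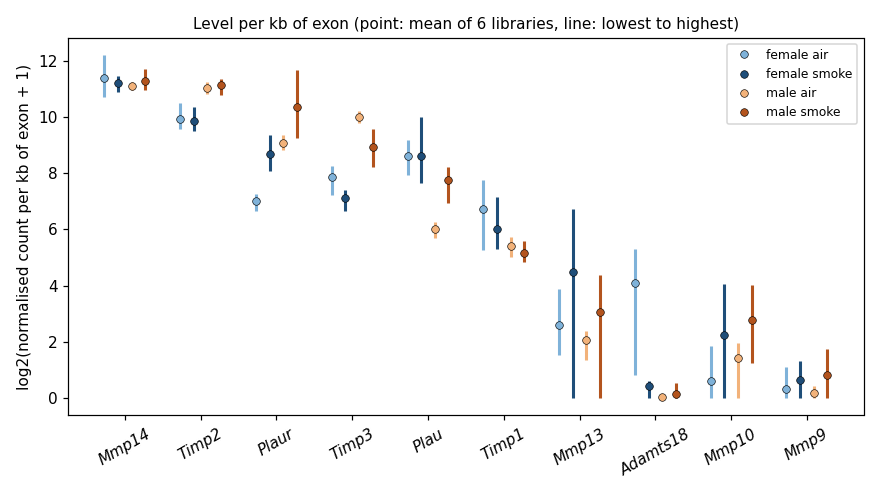
Level of each gene per kilobase of exon, as log2(normalised count per kb + 1) on the vertical axis, for the 4 groups; points are means of 6 libraries and lines run from the lowest to the highest library. Plaur stands at 127 in air and 414 in smoke for female cells, and at 536 and 1313 normalised counts per kilobase for male cells.

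Ratios of these levels within a library, given as a description, followed the single genes. Mmp14 over the sum of Timp2 and Timp3 was 2.26 ± 1.11 in female air and 2.22 ± 0.235 in female smoke (SD, n = 6). The female air mean rests on insert 1 at 4.44, whose deviations followed gene length, the other air inserts being 1.49 to 2.29. The female medians were 1.87 in air and 2.30 in smoke, with overlapping ranges. In male cells the ratio was 0.706 ± 0.0368 in air and 0.904 ± 0.0758 in smoke. The male ranges, 0.660 to 0.740 and 0.816 to 1.03, did not overlap. Plaur over Plau was 0.353 ± 0.11 in female air and 1.41 ± 0.962 in female smoke, with every smoke insert (0.540 to 3.25) above every air insert (0.244 to 0.536). In male cells it was 8.50 ± 0.852 in air and 6.0 ± 3.10 in smoke, with overlapping ranges. Timp2 over Timp3 was 4.40 ± 1.30 and 6.96 ± 2.30 in female air and smoke, and 2.06 ± 0.310 and 5.12 ± 1.89 in male air and smoke.

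Without smoke, 6 of the 8 tested genes were called between female and male air inserts, where 39.0% of all genes were called. Plau was 5.86-fold higher in female cells (log2 difference 2.55 ± 0.32 SE, limma adjusted p = 1.1e-06), and Timp1 2.12-fold higher (1.08 ± 0.34, adjusted p = 0.015) with overlapping ranges. Adamts18, with 570 reads against 1, was also called, having entered the test through female air; the ratio of reads was 642 with a 95% counting interval of 115 to 25414. Timp3 was 4.49-fold lower in female cells (-2.17 ± 0.19, adjusted p = 3.69e-09), Plaur 4.21-fold lower (-2.07 ± 0.28, adjusted p = 3.82e-06) and Timp2 2.17-fold lower (-1.12 ± 0.15, adjusted p = 4.33e-06), each with no overlap of the 6 and 6 inserts. In all, 5 of the 8 genes did not overlap, 2 higher and 3 lower, beside 33.2% of all genes (16.6% higher and 16.7% lower). The 2 higher were Plau and Adamts18, and Adamts18 adds no support to either count because of the filter. With so few genes neither count is a result about the set. Mmp13 and Mmp14 were not called. Scaling by the library total shifted the median of all genes in this comparison to -0.11 on the log2 scale from 0.02 and the split of all calls to 2083 higher and 3387 lower from 2713 and 2569; the count among these genes was 6, 3 in each direction, under both. In inserts 1 to 3 alone the Timp1 difference was 0.84 and was not called (adjusted p = 0.28).

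The rest of the plasminogen system was read from 19 listed genes, of which 13 were tested. In female cells 5 were called higher and 3 lower, and in male cells 3 higher and 1 lower, beside 34.8% and 22.0% of all genes called. Plat, the tissue-type plasminogen activator, had 519 to 1036 normalised counts in female air and 5221 to 17792 in female smoke, a log2 difference of 3.46 ± 0.35 (SE, limma adjusted p = 7.54e-07). In male cells it had 459.9 to 1422 in air and 2189.8 to 7524 in smoke, a difference of 2.5 ± 0.35 (adjusted p = 3.22e-05). The air and smoke ranges of Plat did not overlap in either sex. Plg, the plasminogen gene itself, was at 0 in all 24 libraries, which at a recovered total of 16038813 reads or more allows up to 3 reads in each of 23 libraries.

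Serpinb2, an inhibitor of urokinase that stays largely inside cells, had 22.4 to 97.3 in female air and 149 to 1012 in female smoke, a log2 difference of 3.45 ± 0.52 (SE, limma adjusted p = 6.09e-05). In male cells its difference was 1.46 ± 0.52 (adjusted p = 0.0468), with smoke inserts 1 and 3 highest at 3099.7 and 2868. That male call was lost without any one of air inserts 1, 2, 3 and 5 and smoke inserts 1, 2 and 3 (adjusted p up to 0.138), and was -0.12 in inserts 4 to 6 alone. F3, tissue factor, the starter of coagulation, was lower in female smoke (-1.34 ± 0.17, adjusted p = 1.33e-05) and in male smoke (-0.64 ± 0.17, adjusted p = 0.0109), the latter not called in inserts 4 to 6 alone (-0.36, adjusted p = 0.359).

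**Figure D5:**
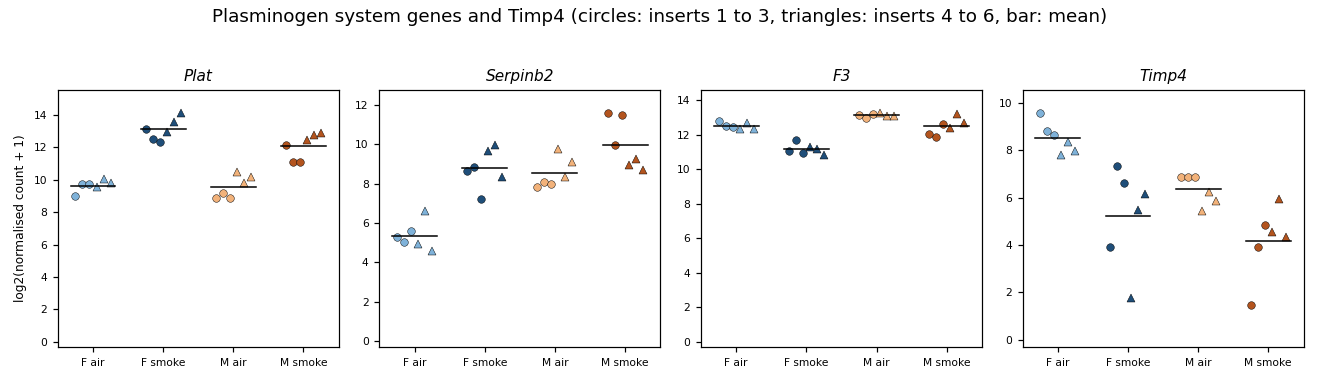
Plat, Serpinb2, F3 and Timp4 in the 24 libraries, as log2(normalised count + 1) on the vertical axis; circles are inserts 1 to 3, triangles inserts 4 to 6 and bars the group mean of the log2 values. Plat in smoke lies above air in both sexes without overlap, and F3 in female smoke (1796 to 3325) lies below female air (5088 to 7035).

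Of 19 other matrix metalloproteinases 8 were tested, and none was called higher in either sex. In female cells 3 were called lower and in male cells 3, beside 19.3% and 12.2% of all genes called lower. The male 3 include Mmp16, which passed the filter only through male air, with a mean of 31.3 there and at most 9.07 elsewhere. Its male call is a consequence of that filter and supports nothing. Mmp11 (stromelysin 3), typical of stromal cells, had 126 to 385 normalised counts in female air and 59.4 to 91.3 in female smoke, a log2 difference of -1.63 ± 0.24 (SE, limma adjusted p = 5.14e-05). In male cells it had 282 to 349.8 in air and 140.4 to 209 in smoke (-0.87 ± 0.24, adjusted p = 0.0119). Mmp7 (matrilysin), an epithelial metalloproteinase, was called lower in female cells (-1.66 ± 0.45, adjusted p = 0.00659) but not when the fit held the female groups alone (adjusted p = 0.0595) or inserts 1 to 3 alone (-1.48, adjusted p = 0.181). Of 6 other inhibitors 3 were tested, and all 3 were called lower in female cells and 1, Timp4, in male cells, on too few genes to set against the same 19.3% and 12.2%. Timp4 had 221 to 771 normalised counts in female air and 2.40 to 162 in female smoke (-3.33 ± 0.73, adjusted p = 0.00151; -3.07 in inserts 1 to 3 alone, adjusted p = 0.0735). In male cells it had 42.7 to 118 in air and 1.77 to 60.3 in smoke (-2.19 ± 0.73, adjusted p = 0.0335), a call lost without any one of air inserts 1, 2, 3 and 5 and smoke inserts 1 and 2 (adjusted p up to 0.105) and in inserts 4 to 6 alone (-0.91, adjusted p = 0.662).

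Among 18 other ADAMTS genes 8 were tested, of which 4 were called lower in female and 2 in male cells, beside 19.3% and 12.2% of all genes, and none higher. Adamts5, an aggrecanase, had 20.4 to 79.1 normalised counts in female air and 0 to 35.4 in female smoke (-2.22 ± 0.54 SE, limma adjusted p = 0.00311; not called in inserts 1 to 3 alone, -2.66, adjusted p = 0.123). In male cells it had 182 to 422 in air and 23.9 to 62.3 in smoke, with no overlap (-2.85 ± 0.54, adjusted p = 0.00063). Adamts10, which acts on fibrillin microfibrils, fell by 2.11 ± 0.25 on the log2 scale in male cells (adjusted p = 5.99e-06). It was also called lower in female cells, with means of 84.5 in air and 39.1 in smoke and overlapping ranges. Adamts16, the family member closest to Adamts18, had 6.09, 6.81, 10.0, 82.8, 288 and 112 in female air and 0.799 to 8.34 in female smoke (-3.19 ± 0.75, adjusted p = 0.00262; in inserts 1 to 3 alone -1 with an adjusted p of 0.354). Its high air values fell in inserts 4, 5 and 6, as did those of Adamts18, and like Adamts18 it passed the filter only through female air, its other group means being at most 3.46.

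Of 9 ADAM proteases 7 were tested, with 1 called higher and 1 lower in each sex, near the 34.8% and 22.0% of all genes called. Adam8, a membrane sheddase, had 3969 to 6715 normalised counts in female air and 6822 to 12124 in female smoke (0.83 ± 0.17 SE, limma adjusted p = 0.00105). In male cells it had 3343 to 4060.4 in air and 7642 to 13958 in smoke (1.56 ± 0.17, adjusted p = 2.79e-06), so the groups did not overlap in either sex. All 16 listed partners and substrates were tested, with 1 called higher and 3 lower in female cells and 2 higher and 1 lower in male cells, at or below those shares. Cd44, the hyaluronan receptor that can dock metalloproteinases, was called higher in female (0.85 ± 0.17, adjusted p = 0.00069) and male cells (0.55 ± 0.17, adjusted p = 0.023). Tnc (tenascin C), a matrix protein of injured tissue, was called lower in female (-1.4 ± 0.28, adjusted p = 0.000807) and male cells (-0.92 ± 0.28, adjusted p = 0.0226). The male Cd44 call was lost without air insert 2 (0.51, adjusted p = 0.052), without smoke insert 5 (0.42, adjusted p = 0.0605) and in inserts 1 to 3 alone (0.31, adjusted p = 0.21), and the male Tnc call without smoke insert 2 (-0.8, adjusted p = 0.0565) or 3 (-0.87, adjusted p = 0.0504). The female Tnc value in inserts 1 to 3 alone was -0.39 (adjusted p = 0.287).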

How the data were processed

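RNA of 24 epithelial cultures was sequenced, 6 in each of 4 groups. Per the submitters' processing notes FastQC 0.11.9, Trimmomatic 0.38.0, HTSeq and DESeq2 were used with mm10; the aligner and the strand setting are not given in the sources used, so a gene and an antisense neighbour cannot be told apart. The values are a signal: gene counts that the authors normalised by library and deposited. In the authors' deposited comparison tables the log2 fold changes and p-values are theirs; their other annotation columns hold gene positions and were deposited with a start counted from 0, given here counted from 1. In 23 libraries 100.0% of values came out as whole reads within 0.001 reads; male smoke insert 5 was left out of count tests, edgeR and DESeq2 included. The test was limma 3.58.1 (R 4.3.3) with a mean-variance trend on log2(value + 1), all 24 libraries in one fit, genes averaging 10 or more, two-sided, Benjamini-Hochberg adjusted. On simulated data for female smoke against air over 13549 genes it recovered 96% of 100 genes changed by 1 on the log2 scale. Among all genes called there, 5.3% were false. Every simulated gene had the same dispersion in all groups, few genes were changed and no library deviated. These rates therefore check the method and need not hold for the real data. Alternatives were other scalings, pseudocounts of 0.5 and 5, other filters, an insert block, subsets of inserts, edgeR 4.0.16 and DESeq2 1.42.0; those for genes outside the 10 and for the Mmp9 and Mmp10 read ratios were chosen after seeing the data. The 10 genes and all lists were chosen with earlier results of these data known. Outside the 10, up to 3 called genes in each direction per list and sex, averaging 20 or more in the higher group, could be named; Plg was named after its values were seen. One listed gene is not reported here. Promoter bases come from RefSeq on GRCm38.p6. Intervals on reads cover counting error only.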

Additional observations from a re-analysis of the deposited data

Results flagged for a closer look

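In 29 groups of 6 inserts, 2 held a sample far from the others by Dixon's test, where chance gives about 1 in 20. Both were female smoke insert 4: Timp1 stood at 127 normalised counts against 34.2 to 48.2 in the other inserts of that group, and Plau at 2419 against 467 to 742. This is one of the 2 libraries whose deviations followed gene length. Without it the Plau response differed between the sexes by -2.19 (limma adjusted p = 0.00165) on the log2 scale.

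By limma's interaction test the smoke response differed between the sexes for Plau, by -1.86, female minus male on the log2 scale, with an adjusted p at the threshold that most alternatives lost. The fit gave -4.26 for Adamts18, which passed the filter on low values only through female air. With 1 read in male air it could hardly fall there, so that value restates its near absence from male cells.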

How the results depend on the processing

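Among the 10 genes, 3 smoke calls stood in each sex under all scalings, pseudocounts, count tests, the fit without a filter and the fit without both libraries that followed gene length. The female calls include Adamts18, which passed the main filter only through female air, so its standing adds no support. With a mean of at least 50, where Adamts18 was not tested, 2 stood in female cells. In subsets, 1 was called in female inserts 1 to 3, 4 in female inserts 4 to 6 and 1 in male inserts 4 to 6, and leaving out one library gave 3 to 4 in female and 3 in male cells. The sex difference in response, 2 genes by limma, fell to 1 gene with TMM scaling, quantile scaling, pseudocount 0.5, pseudocount 5 and inserts 4 to 6 alone, and to 0 with the library total, no filter, a mean of at least 50, inserts 1 to 3 alone and edgeR. Leaving out one library gave 0 to 2 of the 10 genes and 75 to 431 of all genes, against 140. Among all genes, fitting the compared groups alone called 2857 in female and 6148 in male cells, against 4713 and 2979. The order of the sexes reversed, so the shares of genes called do not rank their responses. Without both libraries that followed gene length 6398 male calls and 840 sex differences were made, with DESeq2 506 sex differences, in inserts 1 to 3 alone 656 female calls, 40 sex differences and 2859 calls between the sexes in air (5282 with all inserts), and in inserts 4 to 6 alone 931 male calls and 637 sex differences. Insert numbers were not taken as pairs, because the labels do not tie inserts to mice or cell preparations. Same-numbered inserts correlated over 0.1 in 5 of 6 cases between female air and smoke (-0.206 to 0.367). They did so in 1 of 6 between male air and smoke (-0.242 to 0.124) and 2 of 6 between female and male air (0.031 to 0.205). In these comparisons 2, 0 and 1 inserts correlated best with their own number. Such correlations can neither show nor exclude a pairing. With the replicate block 4534 female, 2798 male and 112 sex-difference calls were made over all genes and 1 sex difference among the 10, Adamts18 passing to an adjusted p of 0.079; no other call among the 10 changed, and male Serpinb2 was not called (adjusted p = 0.0701). Mmp13 changed sign most often: in female cells it was 0.15 with quantile scaling, 0.17 with pseudocount 5, 1.99 in inserts 1 to 3, 2.06 with edgeR, 2.07 with DESeq2 and -1.31 to 0.31 without one library; in male cells -0.05 with pseudocount 0.5, -1.71 in inserts 4 to 6 and -0.39 to 0.76 without one library. Its sex difference was 0.08 in inserts 1 to 3, 0.69 with edgeR, 0.7 with DESeq2 and -1.41 to 0.21 without one library, and between the sexes in air it was -0.06 with quantile scaling. Female Mmp14 was 0.02 without both libraries that followed gene length and -0.22 to 0.08 without one library, female Timp2 -0.18 to 0.04 without one library, female Plau 0.02 in inserts 1 to 3, male Timp2 0 and male Serpinb2 -0.12 in inserts 4 to 6. Timp1 between the sexes in air was 0.81 with quantile scaling (adjusted p = 0.102). The cause of these changes was not tested. Depth limits Mmp9, Mmp10 and male Adamts18, whose groups held at most 61 reads.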
